A study of Mus musculus with 24 samples.

Results

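Of the 50686 genes counted in brain tissue of Pank1-/- Syn-Pank2-/- double knockout mice and controls, 10 encode the core cytosolic heat shock chaperones described here. They were listed by name, with no measured value in the rule but with earlier results of these data known: Hspa1a, Hspa1b and Hspa8 (HSP70 family), Hsp90aa1 and Hsp90ab1 (HSP90 family), Hsph1, Dnajb1 and Bag3 (partners of HSP70), and Hspb1 and Hspb8 (small heat shock proteins). All 10 were among the 21657 genes that passed the filter on low counts. Polyadenylated RNA was sequenced with strand information from tissue labelled back left brain of C57BL/6 mice. The groups were Pank1-/- Syn-Pank2-/- mice (dKO) at day 20, wild type mice (WT) at day 20, dKO at day 10 and WT at day 10, each with males and females and with 3 libraries per sex. The labels do not say what Syn stands for, from when the days were counted or whether each library came from 1 animal. The p-values therefore measure the spread between these libraries, which may be technical.

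Chaperones of the HSP70 family bind unfolded stretches of protein in an ATP-driven cycle that J-domain proteins such as DNAJB1 start and that nucleotide exchange factors such as HSPH1 and BAG3 end. HSP90 takes over partly folded clients, among them steroid receptors and kinases, and small heat shock proteins hold unfolding proteins until HSP70 can act. Transcription of many of these genes is raised by heat shock factor 1 (HSF1), which binds heat shock elements, arrays of the unit nGAAn in alternating orientation. In brain, Hspa8, Hsp90aa1 and Hsp90ab1 are expressed at high levels without stress, whereas Hspa1a and Hspa1b are the stress-inducible HSP70 genes.

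The 23 libraries used held 9.19 M to 44.7 M gene counts (M for 1000000 counts). Before normalization 1 count was thus 0.0224 to 0.109 per 1000000 gene counts. Levels below, unless FPKM is named, are in CPM. These are counts per 1000000 counts of the genes that passed the filter, with library totals scaled by edgeR's TMM factors. At 45964 gene counts, dKO male day 10 replicate 3 was too shallow and was left out, which leaves 5 dKO libraries at day 10 and 6 in each other group. Pank1 averaged 7.49 ± 0.46 CPM in dKO and 22.7 ± 2.34 CPM in WT at day 20 (SD, n = 6 each). Pank2 averaged 42.0 ± 3.16 CPM in dKO and 56.5 ± 3.32 CPM in WT at day 20. At day 10 Pank1 averaged 8.13 ± 0.67 CPM in dKO (n = 5) and 22.7 ± 1.64 CPM in WT (n = 6). Pank2 averaged 49.6 ± 3.02 CPM in dKO and 52.5 ± 3.42 CPM in WT at day 10, with overlapping ranges (44.6 to 52.1 and 46.3 to 56.3 CPM). Neuronal markers (Rbfox3, Snap25, Syt1, Tubb3 and Stmn2) summed to at least 1782 CPM in every library. The library dKO male day 10 replicate 2 stood apart: its 5 choroid plexus markers summed to 7.42 CPM, against at least 209.8 CPM in every other library, and its 3 inhibitory neuron markers summed to 682 CPM, the highest of the 23. Values at day 10 without it are given with the results at that age. Replicate numbers only name libraries and were given in accession order within each group, since the labels carry none.

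Promoter sequences from RefSeq (GRCm38.p6) were matched for 7 of the 10 genes. No entry was used for Hspa8, Hsp90aa1 and Hsp90ab1. A window of 300 bases that ends 50 bases after each start site was searched on both strands for heat shock elements of 2 units (GAANNTTC or TTCNNGAA) and of 3 units (GAANNTTCNNGAA or TTCNNGAANNTTC, which contain the shorter form). At least 1 element of 2 units was present in 6 of the 7 genes, against 17.0% of 27025 genes with a promoter entry. Dnajb1 had none in this window. A 3-unit element was present in Hsph1 alone (ttctggaaagttc, which begins at base 36 after the first of its 2 start sites), against 0.662% of all genes. The 150 bases before the start site are shown for 4 genes that span the range of behaviours below, with 2-unit elements in capitals. At day 20 Hspa1a and Hspa1b were the furthest below WT in dKO. Dnajb1 was lower in dKO with no such element in this window, and Hspb1 holds 2 elements but was not called. Any link between the elements and the changes was not tested. Hspa1a lies at chr17:34972157-34972306 (minus strand), Hspa1b at chr17:34959239-34959388 (minus strand), Hspb1 at chr5:135887769-135887918 (plus strand) and Dnajb1 at chr8:83608025-83608174 (plus strand).
Hspa1a: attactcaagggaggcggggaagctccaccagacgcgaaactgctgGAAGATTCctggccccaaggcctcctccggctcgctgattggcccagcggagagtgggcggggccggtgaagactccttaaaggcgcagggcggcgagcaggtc
Hspa1b: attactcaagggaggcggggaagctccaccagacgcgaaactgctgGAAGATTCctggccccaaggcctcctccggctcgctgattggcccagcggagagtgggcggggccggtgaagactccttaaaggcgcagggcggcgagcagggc
Hspb1: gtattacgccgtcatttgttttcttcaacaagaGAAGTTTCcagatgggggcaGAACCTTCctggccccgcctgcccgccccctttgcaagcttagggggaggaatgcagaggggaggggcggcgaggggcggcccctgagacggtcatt
Dnajb1: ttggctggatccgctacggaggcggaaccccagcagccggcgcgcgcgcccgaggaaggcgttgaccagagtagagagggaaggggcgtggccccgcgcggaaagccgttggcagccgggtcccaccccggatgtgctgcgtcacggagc
The sequences of Hspa1a and Hspa1b differ at 1 of these 150 bases, and both carry their element from 104 bases before the start site.

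At day 20 the question was whether the knockouts differed from controls of the same age. Of the 10 genes, 8 were lower in dKO and 0 were higher at an adjusted p under 0.05 (edgeR's quasi-likelihood test with Benjamini-Hochberg adjustment over 21657 genes, as for every adjusted p below). Over all genes tested, 19.5% were lower and 19.4% were higher, so the share that was lower was above the background and the share that was higher below it. The median log2 change was -0.56 over the 10 genes and -0.0004 over all genes. Furthest below WT were the inducible HSP70 genes and Hsph1, followed by Bag3, Hspa8, Dnajb1, Hsp90aa1 and Hsp90ab1, while Hspb1 and Hspb8 were not called. All of these are levels in bulk tissue, in which fewer cells of a type and less RNA per cell cannot be told apart.

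**Figure D1:**
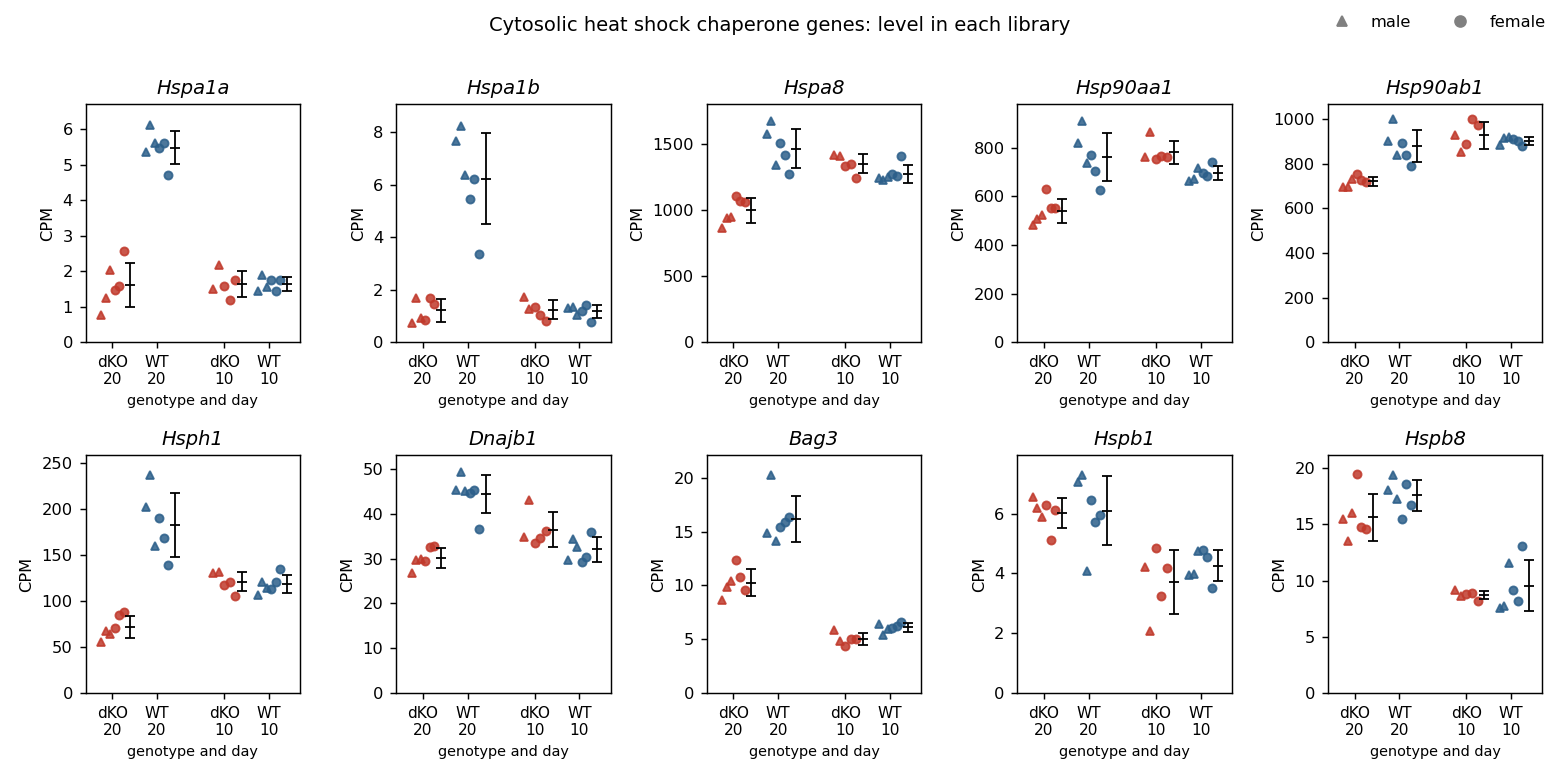
Level in CPM of each of the 10 genes in every library, by genotype (dKO red, WT blue) and day; triangles are males, circles are females, and the bar is the mean ± SD over libraries. At day 20 the dKO points lie wholly below the WT points for 7 genes, whereas Hspb1 and Hspb8 overlap and both are higher at day 20 than at day 10 in either genotype.

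Hspa1a and Hspa1b are neighbouring copies on chromosome 17 (GRCm38) that encode the inducible HSP70. The lowest, median and highest levels of Hspa1a at day 20 were 0.770, 1.53 and 2.57 CPM in dKO, against 4.71, 5.55 and 6.12 CPM in WT. The groups did not overlap, and the dKO values rest on 17 to 41 counts per library. Its log2 change was -1.83 ± 0.16 (SE; adjusted p = 1.04e-08), and the dKO mean was 29.4% of the WT mean. For Hspa1b the lowest, median and highest levels were 0.724, 1.19 and 1.67 CPM in dKO, against 3.37, 6.29 and 8.25 CPM in WT. Here too every dKO library was below every WT library. The log2 change of Hspa1b was -2.32 ± 0.19 (adjusted p = 8.02e-09), the steepest of the 10, and the dKO mean was 19.5% of the WT mean. In the longest protein-coding transcript of each gene, 54.2% of the 75-base words of Hspa1a and 55.8% of those of Hspa1b occur in another gene. Nearly all of them occur in the other copy, and reads that map equally well to both copies are in neither count. With the counts of both genes summed, the log2 change was -2.07 ± 0.14 (adjusted p = 3.15e-10).

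Hspa8 encodes the constitutive HSP70 of the cytosol, which also uncoats clathrin-coated vesicles. At day 20 its lowest, median and highest levels were 860, 1003 and 1106 CPM in dKO, against 1275, 1460.5 and 1672 CPM in WT, with no overlap. The log2 change was -0.56 ± 0.05 (adjusted p = 3.65e-08), to 68.0% of the WT mean. Of the 75-base words of Hspa8, 68.0% occur in transcripts of 9 other genes, above all in Gm15459. That gene averaged 14.4 CPM over the 23 libraries and changed by -0.55 ± 0.10 on the log2 scale at day 20 (adjusted p = 0.000226). Reads that map equally well to both genes are in neither count. The inducible pair was further below WT than Hspa8 on the log2 scale, although the gap in absolute CPM was far larger for Hspa8.

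Hsp90aa1 and Hsp90ab1 encode the alpha and beta forms of cytosolic HSP90. Levels of Hsp90aa1 at day 20 had a lowest, median and highest value of 483, 537 and 629 CPM in dKO, against 627, 754 and 911 CPM in WT. The ranges met at a single point, since the highest dKO library (female replicate 1) was just above the lowest WT library (female replicate 3). The log2 change was -0.49 ± 0.06 (adjusted p = 5.62e-07). For Hsp90ab1 the values were 696, 722 and 754 CPM in dKO, against 792, 867 and 999.6 CPM in WT, with no overlap. Its log2 change of -0.28 ± 0.05 (adjusted p = 3.73e-05) was the smallest of the 8 calls, and it was not called when the test asked for a change above 1.2-fold (adjusted p = 0.436). Words shared with other genes were 53.1% of those of Hsp90aa1 (mostly with Gm12346, at 8.24 CPM on average) and 0.74% of those of Hsp90ab1.

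The partners of HSP70 were also lower in dKO than in WT. Hsph1 encodes an HSP110 protein, which exchanges the nucleotide of HSP70 and helps dissolve aggregates. Its lowest, median and highest levels at day 20 were 55.5, 69.2 and 87.7 CPM in dKO, against 139, 179 and 237 CPM in WT. Every dKO library was below every WT library, and the dKO mean was 39.3% of the WT mean. The log2 change of -1.35 ± 0.09 had the smallest adjusted p of the 10 genes (1.57e-09). The longest protein-coding transcript of Hsph1 (3802 bases) shares no 75-base word with another gene. Its summed exon length is 7266 bases, and exons outside that transcript were not searched.

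Dnajb1 encodes the main inducible J-domain protein (HSP40). At day 20 its lowest, median and highest levels were 26.8, 29.8 and 32.7 CPM in dKO, against 36.6, 45.2 and 49.4 CPM in WT, with no overlap. The log2 change was -0.56 ± 0.07 (adjusted p = 1.58e-06). Bag3 encodes a nucleotide exchange factor that links HSP70 and HSPB8 to autophagy. It was at 8.65, 10.1 and 12.4 CPM (lowest, median, highest) in dKO, against 14.1, 15.7 and 20.2 CPM in WT, again without overlap. Its log2 change was -0.64 ± 0.09 (adjusted p = 6.23e-06).

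The small heat shock protein genes described here, Hspb1 and Hspb8, were not called. Hspb1, which encodes HSP25 in mouse (HSP27 in human), was at 5.12, 6.15 and 6.56 CPM (lowest, median, highest) in dKO at day 20, against 4.08, 6.20 and 7.30 CPM in WT. The dKO range lay wholly inside the WT range, and the log2 change was -0.02 with a 95% confidence interval of -0.32 to 0.29 (adjusted p = 0.946). Hspb8, the small heat shock protein that works with BAG3, was at 13.5, 15.1 and 19.5 CPM in dKO, against 15.5, 17.6 and 19.4 CPM in WT. Its groups overlapped, and the log2 change was -0.16 with an interval of -0.39 to 0.06 (adjusted p = 0.237). Both intervals lie above the estimates for Hsph1, Hspa8, Hsp90aa1, Dnajb1, Bag3 and the inducible pair, but both include that for Hsp90ab1 (-0.28). The difference between genes was not itself tested. Of the 75-base words of Hspb1, 47.3% occur in Hsp25-ps1, which did not pass the filter.

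The absence of overlap was itself more common among the 10 genes than over all genes. Every dKO library was below every WT library at day 20 for 7 of the 10 genes, against 10.3% of all genes tested, and every dKO library was above every WT library for 0 of the 10, against 9.79%. Libraries within a genotype also differed across several genes together. WT male replicate 2 was the highest of the 6 WT libraries for all 10 genes, and WT female replicate 3 was the lowest for 7. Among dKO libraries male replicate 1 was the lowest for 7 genes. WT male replicate 2 also had the highest sum of the 5 oligodendrocyte markers at day 20 (18239 CPM) and of the 5 choroid plexus markers (635 CPM). Without it the same number of genes, 8, was called, and the changes ranged from -2.29 for Hspa1b to -0.25 for Hsp90ab1 among them.

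**Figure D2:**
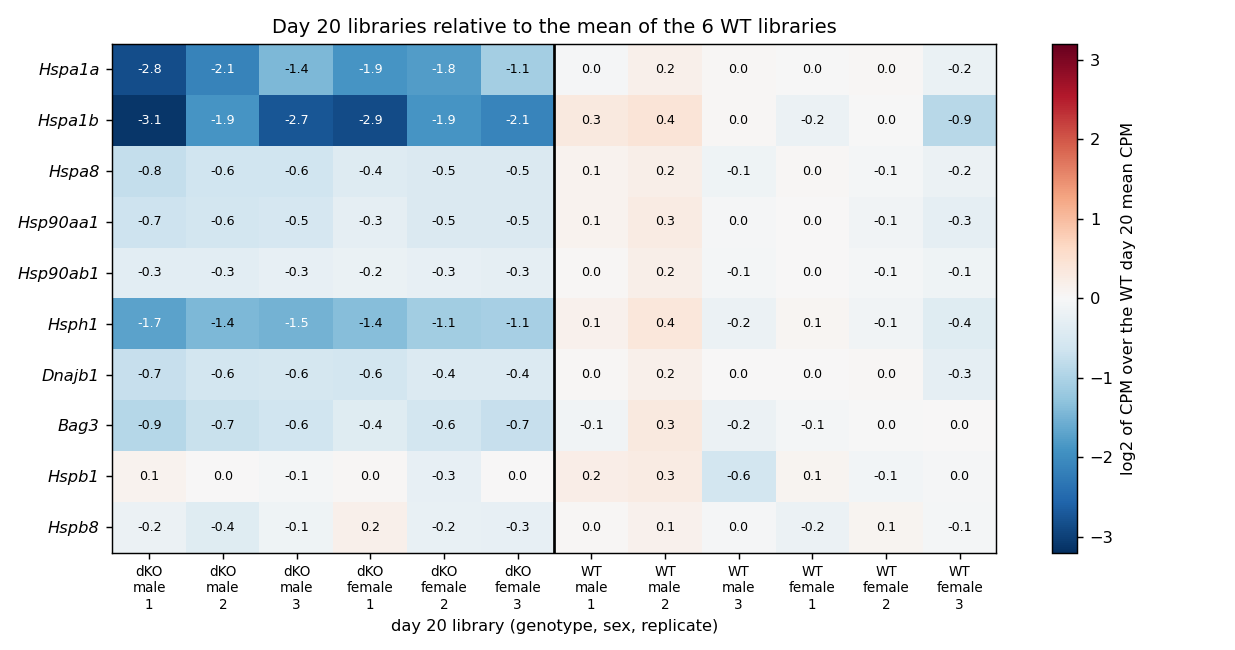
Log2 of the CPM in each day 20 library over the mean of the 6 WT libraries, for each gene (rows) and library (columns, dKO left of the line and WT right of it). All 6 dKO libraries are blue for the 8 genes that were called, and WT male replicate 2 is above the WT mean for all 10 genes.

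Marker genes of several cell types moved between the same groups at day 20, and their part in these changes was not tested. Of 6 microglial markers 5 were lower (summed level 52.7 to 90.8 CPM in dKO, 110.0 to 130.2 CPM in WT), and of 5 endothelial markers 4 were lower (115 to 152 CPM in dKO, 178 to 193 CPM in WT). Of 6 mural markers 3 were lower and 1 was higher (92.6 to 111 CPM in dKO, 147 to 192 CPM in WT). All 4 fibroblast markers were lower (37.5 to 58.8 CPM in dKO, 83.4 to 129 CPM in WT), as were all 6 erythroid markers (75.8 to 131 CPM in dKO, 319.9 to 676 CPM in WT). Choroid plexus markers were lower in 3 of 5 (209.8 to 503 CPM in dKO, 489 to 635 CPM in WT). Among neural cell types, 2 of 5 neuronal markers were lower (2147 to 2390 CPM in dKO, 2467 to 2571 CPM in WT) and 1 of 5 oligodendrocyte markers was lower (10937 to 13839 CPM in dKO, 13985 to 18239 CPM in WT). Of 5 astrocyte markers 2 were lower and 1 was higher, and their sums did not overlap (1459 to 1529 CPM in dKO, 1600.1 to 1710 CPM in WT). Of 2 oligodendrocyte precursor markers 1 was higher (107 to 129.7 CPM in dKO, 92.3 to 108 CPM in WT), and of 3 ependymal markers 1 was lower (11.996 to 19.2 CPM in dKO, 13.1 to 22.5 CPM in WT). No marker in these lists was at 0 in all 23 libraries.

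At day 10 none of the 10 genes was called between dKO and WT. An unadjusted p under 0.05 was reached by 3 of them, and DESeq2 and limma-voom also called 0. Over all genes 3.88% were higher and 1.91% lower in dKO. The median log2 change of the 10 genes was 0.05, against 0.01 over all genes. Hspa1a and Hspa1b were near their day 10 WT levels, at 1.64 ± 0.36 and 1.24 ± 0.35 CPM in dKO (SD, n = 5), against 1.64 ± 0.19 and 1.17 ± 0.24 CPM in WT (n = 6). Counts were low at this age, 14 to 39 per dKO library for Hspa1a, and the 95% interval of its log2 change ran from -0.39 to 0.48. For Hsph1 the mean was 121 ± 10.4 CPM in dKO and 118 ± 9.76 CPM in WT.

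The 3 genes nearest to a call at day 10 were not all lower. Hsp90aa1 was at 755, 768, 761, 761 and 864 CPM in the 5 dKO libraries, against 662, 690 and 740 CPM (lowest, median, highest) in WT. All 5 dKO libraries were above all 6 WT libraries, which held for 1.04% of genes, yet the log2 change of 0.18 ± 0.06 was not called (adjusted p = 0.0711). Dnajb1 was at 33.4, 34.6, 36.1, 34.8 and 43.1 CPM in dKO, against 29.2, 31.5 and 36.0 CPM in WT, with overlapping groups and a log2 change of 0.20 ± 0.07 (adjusted p = 0.0965). In both genes the highest value was that of dKO male replicate 2, the library with few choroid plexus reads. Without it the log2 change was 0.12 for Hsp90aa1 (adjusted p = 0.473) and 0.10 for Dnajb1 (adjusted p = 0.614). Without dKO male replicate 1, which leaves that library alone in its group, both genes were called (adjusted p = 0.0176 for Hsp90aa1 and 0.0171 for Dnajb1). Without WT male replicate 3 Hsp90aa1 alone was called (adjusted p = 0.0472). Oligodendrocyte markers were lower in dKO for 3 of 5 at this age (summed level 3510 to 5553 CPM in dKO, 5209 to 10632 CPM in WT), and their part in these values was not tested. Bag3 was at 4.35, 5.04, 5.06, 5.90 and 4.85 CPM in dKO, against 5.39, 6.13 and 6.63 CPM in WT. The groups overlapped in 1 dKO library, and its log2 change was -0.27 ± 0.12 (adjusted p = 0.142). Among the genes far from a call, leaving out dKO male replicate 2 gave a log2 change of -0.12 for Hspa1a (0.04 with it), 0.21 for Hspa1b (0.12 with it) and 0.0046 for Hspb1 (-0.20 with it). None of the 10 genes was called without that library.

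**Figure D3:**
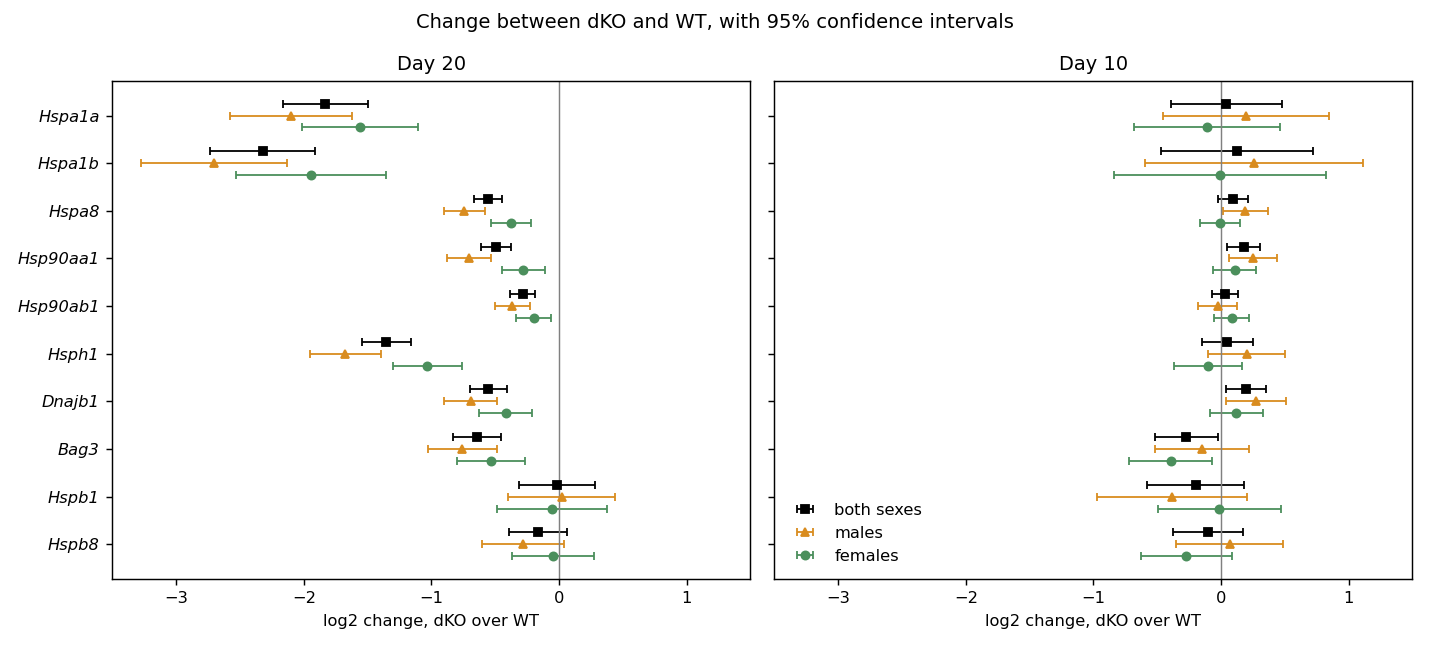
Log2 change of each gene between dKO and WT at day 20 (left) and day 10 (right), with 95% confidence intervals, for both sexes together (squares), males (triangles) and females (circles). At day 20 the intervals of 8 genes lie below 0 in either sex, whereas at day 10 the estimates scatter around 0.

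The difference between the day 20 and day 10 changes was tested as a genotype by day term. It was called for 7 of the 10 genes, all more negative at day 20, against 14.9% of all genes called in that direction. The term was -2.45 ± 0.36 for Hspa1b (adjusted p = 4.29e-05), -1.87 ± 0.26 for Hspa1a (3.05e-05) and -1.40 ± 0.13 for Hsph1 (6.77e-07). Dnajb1 had -0.75 ± 0.10, Hsp90aa1 -0.67 ± 0.08, Hspa8 -0.65 ± 0.08 and Hsp90ab1 -0.31 ± 0.07, with adjusted p of 1.78e-05, 6.28e-06, 3.85e-06 and 0.00135 in that order. Bag3 was not called (-0.37 ± 0.15, adjusted p = 0.0606), and its adjusted p fell under the threshold in 4 of 35 alternatives. Hspb8 (-0.06 ± 0.17) and Hspb1 (0.18 ± 0.23) were far from a call. Leaving out dKO male day 10 replicate 2 leaves replicate 1 alone in its group. The term was then -2.53 for Hspa1b, -1.71 for Hspa1a, -1.39 for Hsph1, -0.66 for Dnajb1 and -0.61 for Hsp90aa1. It was -0.64 for Hspa8, -0.33 for Hsp90ab1, -0.42 for Bag3, -0.07 for Hspb8 and -0.018 for Hspb1.

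How each genotype changed with age separates the genes further. In WT, 8 of the 10 genes were higher at day 20 than at day 10 and 0 were lower, against 26.1% higher and 25.3% lower over all genes. Hspa1b increased most, by 2.40 ± 0.19 on the log2 scale (adjusted p = 5.45e-10), with 6.22 ± 1.73 CPM at day 20 and 1.17 ± 0.24 CPM at day 10. Hspa1a increased by 1.73 ± 0.15, with 5.49 ± 0.46 CPM at day 20 and 1.64 ± 0.19 CPM at day 10. Bag3 increased by 1.39 ± 0.09, Hspb8 by 0.90 ± 0.11, Hsph1 by 0.62 ± 0.09, Hspb1 by 0.55 ± 0.15, Dnajb1 by 0.47 ± 0.07 and Hspa8 by 0.20 ± 0.05. Hsp90aa1 (0.13, adjusted p = 0.0616) and Hsp90ab1 (-0.04, adjusted p = 0.482) were not called.

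In dKO, by contrast, 3 genes were higher at day 20 than at day 10 and 5 were lower, against 30.3% higher and 31.2% lower over all genes. Bag3 (1.01 ± 0.11), Hspb8 (0.84 ± 0.13) and Hspb1 (0.73 ± 0.17) rose on the log2 scale. Hsph1 fell by 0.78 ± 0.09, with 71.7 ± 12.3 CPM at day 20 and 121 ± 10.4 CPM at day 10, and Hsp90aa1, Hspa8, Hsp90ab1 and Dnajb1 fell by 0.54, 0.45, 0.35 and 0.29. Hspa1a and Hspa1b were not called: Hspa1a averaged 1.61 ± 0.62 CPM at day 20 and 1.64 ± 0.36 CPM at day 10, and Hspa1b 1.22 ± 0.43 CPM and 1.24 ± 0.35 CPM at the same ages. The 95% interval of the log2 change with age in dKO was -0.60 to 0.31 for Hspa1a and -0.66 to 0.57 for Hspa1b, both below the WT increase of the same gene. All 5 oligodendrocyte markers were higher and all 4 fibroblast markers lower at day 20 than at day 10 in both genotypes, and their part in the changes with age was not tested. These age comparisons share their libraries with the comparisons between genotypes above. Those in dKO include male day 10 replicate 2, the library that stood apart, and the changes without it are not given.

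**Figure D4:**
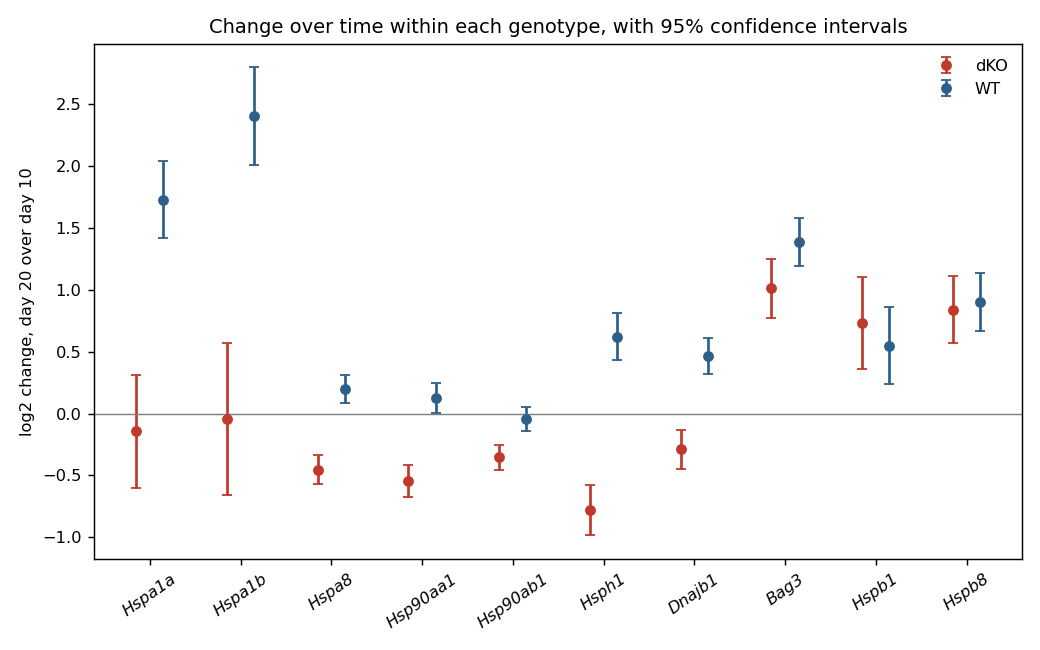
Log2 change from day 20 over day 10 within dKO (red) and within WT (blue) for each gene, with 95% confidence intervals. The intervals of dKO and WT are apart for Hspa1a, Hspa1b, Hspa8, Hsp90aa1, Hsp90ab1, Hsph1 and Dnajb1, and overlap for Bag3, Hspb1 and Hspb8.

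Both sexes were measured at each age, so the day 20 difference could be set out by sex. In males 8 genes were lower in dKO, against 17.5% of all genes, and in females the same 8 genes were lower, against 5.37%. The log2 change of Hsph1 was -1.67 ± 0.13 in males and -1.03 ± 0.13 in females. Hspa1b changed by -2.70 ± 0.27 in males and -1.94 ± 0.28 in females, and Hspa1a by -2.10 ± 0.22 in males and -1.56 ± 0.21 in females. For Hspa8 the values were -0.74 ± 0.07 in males and -0.38 ± 0.07 in females, and for Hsp90aa1 -0.71 ± 0.08 in males and -0.28 ± 0.08 in females. The call of Hsp90ab1 in females was marginal (adjusted p = 0.0475) and was made under 14 of 35 alternatives.

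All 8 of those changes were more negative in males, but the difference between sexes was called for 0 of the 10 genes, 3 of which had an unadjusted p under 0.05. Over all 21657 genes 0 were called (0.0%), while 3284 had an unadjusted p under 0.05. The nearest were Hsp90aa1 (-0.43 ± 0.11, adjusted p = 0.0963), Hsph1 (-0.64 ± 0.18, adjusted p = 0.107) and Hspa8 (-0.36 ± 0.10, adjusted p = 0.11). DESeq2 called 2 of the 10, Hsp90aa1 (adjusted p = 0.0386) and Hsph1 (0.0386), and 347 genes in all. A fit of the day 20 libraries alone called Hspa8 (0.0432) and Hsp90aa1 (0.0464), and 1091 genes in all. The 10 genes share their libraries, so their changes by sex are not separate observations. The highest WT library at day 20 for all 10 genes (replicate 2) and the lowest dKO library for 7 (replicate 1) were male. The lowest WT library for 7 genes was female (replicate 3). The part of these libraries in the sex difference was not tested. At day 10 the sex difference was called for 0 of the 10 genes and 0.0% of all genes, of which 2599 had an unadjusted p under 0.05, and DESeq2 called 0. Within sexes at day 10, edgeR called 0 of the 10 genes in males (3 at an unadjusted p under 0.05), against 0.0139% of all genes, and 0 in females (1 at an unadjusted p under 0.05), against 0.591%. In WT alone edgeR called 0 of the 10 genes between males and females (0 at an unadjusted p under 0.05), against 0.0693% of all genes.

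Per length of exon the 10 genes spanned more than 2 orders of magnitude. At day 20 the mean level in dKO was 240.1 ± 7.35 FPKM for Hsp90ab1, 232 ± 22.1 FPKM for Hspa8, 138 ± 12.8 FPKM for Hsp90aa1, 9.87 ± 1.69 FPKM for Hsph1, 9.42 ± 0.69 FPKM for Dnajb1 and 8.02 ± 1.06 FPKM for Hspb8. The lowest in dKO were Hspb1 at 5.84 ± 0.48 FPKM, Bag3 at 4.003 ± 0.49 FPKM, Hspa1a at 0.544 ± 0.21 FPKM and Hspa1b at 0.434 ± 0.15 FPKM. In WT the order was Hspa8 at 340.4 ± 34.5 FPKM, Hsp90ab1 at 293 ± 24.005 FPKM, Hsp90aa1 at 194 ± 24.9 FPKM, Hsph1 at 25.1 ± 4.75 FPKM, Dnajb1 at 13.8 ± 1.31 FPKM and Hspb8 at 9.01 ± 0.71 FPKM. Bag3 at 6.30 ± 0.84 FPKM and Hspb1 at 5.91 ± 1.13 FPKM followed, then Hspa1b at 2.22 ± 0.62 FPKM and Hspa1a at 1.85 ± 0.16 FPKM. Neighbours whose ranges overlapped in dKO were Hsp90ab1 with Hspa8, Hsph1 with both Dnajb1 and Hspb8, Dnajb1 with Hspb8, and Hspa1a with Hspa1b. In WT the ranges of Hspa8 with Hsp90ab1, Bag3 with Hspb1, and Hspa1b with Hspa1a overlapped. The orders given are those of the group means, and the order within each library was not compared. They also depend on the length used. The summed exon length was 4301 bases for Hspa8, 7266 for Hsph1 and 2999 for Hsp90ab1. The longest protein-coding transcripts had 2394, 3802 and 2520 bases in that order. Reads lost to multimapping can lower Hspa8 (68.0% of words shared) more than Hsp90ab1 (0.74%).

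Whether the genes also varied together inside groups was examined with group means removed, over 23 libraries and 45 pairs of genes. The median Pearson r was 0.245, with a range of -0.501 to 0.828. Pairs of other genes were not examined, so there is no background for this median or for the pairs that passed. WT male day 20 replicate 2, the highest WT library of that age for all 10 genes, was included. The part of such shifts of whole libraries was not tested. An adjusted p under 0.05 for Pearson's r (100000 permutations of libraries within groups, adjusted over the 45 pairs) was reached by 4 pairs, all positive. Hspa8 and Hsph1 had r = 0.828 and Spearman's rho = 0.685 (permutation, raw p = 0.00284 and 0.0102, adjusted p = 0.0426 and 0.115). Hspa8 and Hsp90aa1 had r = 0.814 and rho = 0.789 (permutation, raw p = 0.00027 and 0.00022, adjusted p = 0.0121 and 0.0099). Hsph1 and Dnajb1 had r = 0.669 and rho = 0.670 (permutation, raw p = 0.00108 and 0.00136, adjusted p = 0.0243 and 0.0306), and Hspa1a and Dnajb1 had r = 0.571 and rho = 0.654 (permutation, raw p = 0.00399 and 0.00271, adjusted p = 0.0449 and 0.0406). Without the 2 libraries farthest from the median of the gene named first, r was 0.713, 0.708, 0.636 and 0.597 for these pairs in the same order. The copies Hspa1a and Hspa1b did not pass (r = 0.149, rho = 0.108, permutation, adjusted p = 0.839 and 0.883), on counts of 10 to 310 per library.

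Other chaperone systems were counted by lists of genes, set beside the 19.4% of all genes that were higher and the 19.5% that were lower at day 20. For these lists at day 20, genes that fell or rose were lower or higher in dKO than in WT of the same age. Of 6 heat shock factors and their binding proteins 0 were called in either direction at day 20 (median log2 change -0.05): Hsf1, the factor named above, was at -0.16 ± 0.07 (adjusted p = 0.0659) and Hsf2 at 0.01 ± 0.06 (adjusted p = 0.957). Of 7 other cytosolic HSP70 and HSP110 genes 4 were lower and 1 higher (median -0.29). Among them the HSP110 gene Hspa4 fell by 0.50 ± 0.04 (adjusted p = 7.57e-09) and Hspa4l by 0.35 ± 0.07, while Hspa2, an HSP70 gene best known from the testis, rose by 0.47 ± 0.10 (adjusted p = 0.00062). Of 10 other J-domain genes 5 were lower and 1 higher (median -0.11). Dnaja1 fell by 0.43 ± 0.04 and Dnajb2 by 0.40 ± 0.06, and Dnajc7, which encodes a J-domain protein that binds both HSP70 and HSP90, rose by 0.13 ± 0.04. Of 8 nucleotide exchange factors and HSP70 cochaperones 3 were lower, namely St13, Bag2 and Bag1, and 1 was higher, Bag6 (0.26 ± 0.04; median of the list -0.11).

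HSP90 cochaperones included 8 of 15 that were lower and 1 that was higher (median -0.22). Chordc1 fell by 0.76 ± 0.06 (adjusted p = 4.11e-09), the immunophilin Fkbp4 by 0.55 ± 0.05, Stip1, which bridges HSP70 and HSP90, by 0.46 ± 0.06, and Ptges3, which encodes p23, by 0.41 ± 0.05. Of 6 other small heat shock protein genes 5 were tested, and 2 were lower (median -0.26): Cryab, which encodes the lens and glial chaperone alpha B-crystallin, fell by 1.62 ± 0.22 (adjusted p = 2.4e-05) and Hspb11 by 0.38 ± 0.10. Hspb7 did not pass the filter. Of 14 TRiC chaperonin and prefoldin genes, which fold actin and tubulin, 6 were lower and 0 higher (median -0.11), with Cct7 at -0.25 ± 0.04. Of 12 mitochondrial chaperones and proteases 5 were lower and 2 higher (median -0.10), and Hspd1 and Hspe1, which encode HSP60 and its partner HSP10, fell by 0.38 ± 0.05 and 0.42 ± 0.08. Of 9 partners of selective autophagy 0 were lower and 2 higher, Hdac6 (0.26 ± 0.06) and Map1lc3b (0.17 ± 0.05).

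Outside the cytosol, 9 of 10 chaperones of the endoplasmic reticulum were lower and 0 higher (median -0.80). Pdia4 fell by 1.39 ± 0.09, Hspa5, which encodes the luminal HSP70 BiP, by 1.23 ± 0.10, Calr by 1.01 ± 0.08 and Hsp90b1, which encodes the luminal HSP90, by 0.96 ± 0.07. Immediate early genes went in both directions, with 11 of 22 lower and 5 higher (median -0.26), and Nr4a3 fell by 2.004 ± 0.17. All 12 listed glucocorticoid targets were higher (median 1.47), among them Fkbp5, which encodes an HSP90-bound immunophilin of the steroid receptor, at 2.24 ± 0.10 (adjusted p = 4.96e-12). Of these 12 lists, calls at day 10 were limited to Hsbp1 (0.24 ± 0.05), Hspbp1 (0.25 ± 0.07), Ptges3 (0.20 ± 0.05) and Cct8 (0.16 ± 0.04), all higher, and Cryab, lower by 1.22 on the log2 scale (adjusted p = 0.0268), beside 3.88% of all genes higher and 1.91% lower at that age. With age in WT, 9 of 15 HSP90 cochaperones and 9 of 10 endoplasmic reticulum chaperones rose with 0 falling, whereas 11 of 14 TRiC and prefoldin genes fell and 1 rose, beside 26.1% of all genes higher and 25.3% lower. In the same comparison Hsf1 rose by 0.27 ± 0.07 and Hsf2 fell by 0.29 ± 0.06.

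**Figure D5:**
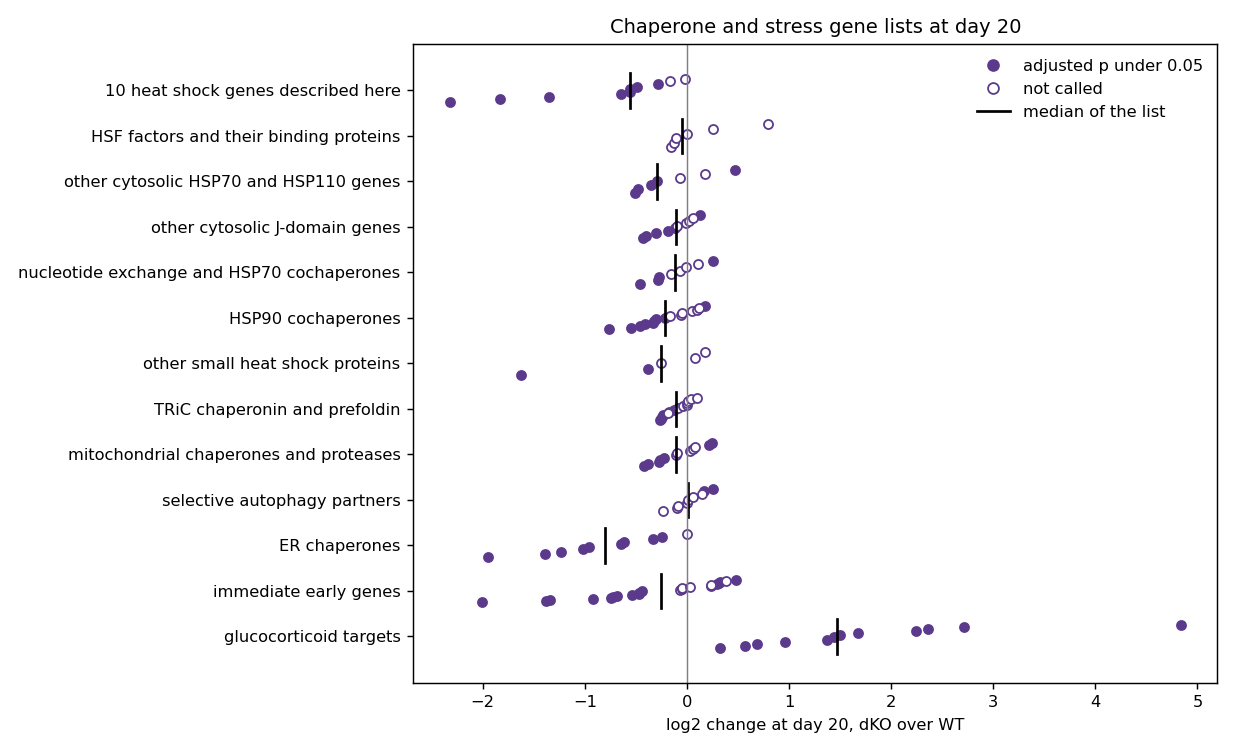
Log2 change at day 20 between dKO and WT for each tested gene of the 12 lists and of the 10 heat shock genes described here, with filled points for an adjusted p under 0.05, open points for genes not called and a bar at the median. The 10 genes have a median of -0.56, between the endoplasmic reticulum chaperones (-0.80) and the other cytosolic lists (-0.29 to 0.01).

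The genes whose profile over the 23 libraries was most like the mean profile of the 10 genes were Bicd2 (Pearson r = 0.957), Stip1 (0.953), Slc5a3 (0.946), Far1 (0.944) and Car2 (0.933), out of 10808 genes averaging 10 CPM or more. Most like Hsph1 alone were P4ha1 (0.983), Hsp90b1 (0.978), Chordc1 (0.975), Pdia3 (0.959) and Hspa5 (0.958). The members themselves were not equally like their own mean: r was 0.919 for Hspa1a, 0.900 for Dnajb1 and 0.895 for Hsph1, but 0.446 for Hsp90ab1 and 0.297 for Hspb1. Each member is part of that mean, which raises its r, so these values cannot be set beside those of other genes. These correlations are descriptions over libraries that share their differences between age and genotype groups.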

How the data were processed

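Raw counts, as the authors deposited them, came in a separate table for every one of the 24 libraries (TruSeq Stranded mRNA, per the labels' protocols). STAR 2.5.2b, HTSeq and the build GRCm38.p5 appear in the submitters' processing notes, which give no role for either tool and no version of HTSeq. Column 4, the reverse strand, was analysed; forward-strand counts came to 5.22 to 7.46% of it. The 4 entries that name no gene held 58.3 to 62.5% of reads and were left out. Multimapping reads (4.77 to 5.94% of reads) are in no gene's count, which touches Hspa1a, Hspa1b, Hspa8, Hsp90aa1 and Hspb1. GENCODE M21 named 50462 of 50686 gene identifiers. Promoters came from RefSeq on GRCm38.p6. FPKM used the summed exon length of GENCODE M21.

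The 23 libraries with at least 1000000 gene counts were fitted in R 4.3.3 with edgeR 4.0.16 (filterByExpr by group, TMM, glmQLFit with robust estimation, glmQLFTest, two-sided), with 1 mean for each of 8 groups and 12 contrasts. Calls are at an adjusted p under 0.05 (Benjamini-Hochberg). Log2 CPM used a prior count of 2. The test was tried on simulated counts. No library was a copy of another. The 10 genes, the gene and marker lists and the tests were chosen with earlier results of these data known. All 10 genes were named, and from each list up to 4 called genes with the smallest p; Hsf1 and Hsf2, which were not called at day 20, were named after their values were seen. Alternatives used limma 3.58.1 and DESeq2 1.42.0 as well.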

Additional observations from a re-analysis of the deposited data

Results flagged for a closer look

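Single libraries stood far from the rest of their genotype and age in 5 of 40 sets of values, of which chance gives about 1 in 20. Hsp90aa1 (864 CPM) and Dnajb1 (43.1 CPM) were high in dKO male day 10 replicate 2, the library whose choroid plexus markers summed to 7.42 CPM. Dnajb1 was low in WT female day 20 replicate 3 (36.6 CPM), and Bag3 was high in WT male day 20 replicate 2 (20.2 CPM). Hspa8 was high in WT female day 10 replicate 3 (1409 CPM), which also had the highest sum of oligodendrocyte markers among day 10 libraries (10632 CPM).

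The change between dKO and WT differed between day 20 and day 10 for 7 genes by the genotype by day term of edgeR's fit. The differences were -1.87 for Hspa1a, -2.45 for Hspa1b, -0.65 for Hspa8, -0.67 for Hsp90aa1, -0.31 for Hsp90ab1, -1.40 for Hsph1 and -0.75 for Dnajb1 on the log2 scale, each more negative at day 20.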

How the results depend on the processing

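The day 20 count was 7 to 8 of the genes under all 35 alternatives (1 of them, an earlier dispersion estimate, chosen after seeing the data), and the genotype by day count 6 to 8. The day 10 count was 0 to 2 over the libraries left out in turn, for both sexes and for males. At day 20 a test for a change above 1.2-fold called 3 genes in females (Hspa1a, Hspa1b and Hsph1), and the sex difference was called for 2 genes by DESeq2 and for 2 when only the groups compared were fitted. Under the 1.2-fold test Hsp90ab1 lost its genotype by day call (adjusted p = 0.302). Changes of sign were limited to genes that were not called. At day 20 Hspb1 was 0.039 with the unstranded column, 0.0027 with limma-voom and -0.13 to 0.062 over the libraries left out. At day 10 Hsp90ab1 was -0.0001 with all 24 libraries. Over the libraries left out at day 10 it was -0.0049 to 0.0538, Hspa1a -0.12 to 0.16, Hspa1b -0.015 to 0.23, Hspb1 -0.50 to 0.0046 and Hspb8 -0.16 to 0.022. The genotype by day term of Hspb1 was -0.018 to 0.48. Causes were not tested.

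Background counts over all genes moved more: 2997 to 9744 at day 20 (8412 reported) and 6 to 4648 at day 10 (1254 reported; 16 without dKO male day 10 replicate 2, 66 without WT male day 10 replicate 1, 4648 without dKO male day 10 replicate 1). The genotype by day count was 2157 to 7347 (6210 reported), that of females at day 20 538 to 4010 (2317), of males 3654 to 8654 (7654), and of females at day 10 4 to 1459 (128) and males 0 to 4484 (3). Sex differences gave 0 to 1091 at day 20 and 0 to 2062 at day 10 (0 reported for both), and age gave 5843 to 11642 in WT (11121) and 9111 to 14288 in dKO (13333), while WT sexes gave 9 to 23 (15). No paired analysis was possible because the labels carry no replicate numbers; those used here follow accession order. Depth limits Hspa1a and Hspa1b, at 10 to 81 counts per library at day 10.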
